A study of Homo sapiens with 12 samples.

Results

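The genes described here encode PDLIM7, TAGLN (transgelin) and 8 other proteins that sit on actin filaments: PDLIM1, PDLIM2, PDLIM4, PDLIM5, ZYX (zyxin), TES (testin), LASP1 and TAGLN2. They were chosen by name, after differences of PDLIM7, TAGLN and ZYX from the control arrays had been seen, and every probe annotated to any of the 10 genes was taken. This gave 10 of 20041 genes with 1 symbol on the array and 21 of 47311 probes with values, and 7 of the 10 genes had more than 1 probe. Of the 21 probes, 17 from 9 genes were detected on at least 3 arrays (detection p below 0.05) and were kept among 22195 probes in all; the other 4 were detected on 0 arrays.

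The arrays hold RNA from the human cell line MDA-MB-231, derived from a triple-negative breast cancer and mesenchymal in shape. The 9 arrays labelled ARF1 siRNA came from cells transfected with a SMART pool of siRNAs against ARF1, a GTPase of Golgi membranes. The 3 control arrays came from cells given a scramble siRNA. Per the labels' protocol, siRNA was used at 100 nM with Oligofectamine, so the control arrays share the transfection. By source name these 9 fall into the sets ARF-1, ARF-2 and ARF-4 (n = 3 for every set); the labels leave the meaning of the set numbers unstated, and do not say whether arrays of a set came from separate cultures, so p-values measure only the spread between these arrays, which may be technical. The stated aim was a loss-of-function study of ARF1 in the epithelial-mesenchymal transition, the change by which epithelial cells become motile.

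LIM domains are zinc-binding folds that dock onto other proteins, and many LIM proteins gather at stress fibres and focal adhesions, the contractile bundles and anchoring points of spread cells. The ALP and Enigma family (the PDLIM genes) joins an actinin-binding PDZ domain to LIM domains, whereas zyxin and testin carry LIM domains at one end and are recruited to tensed actin. Transgelins are small calponin-homology proteins that bind along actin filaments, and TAGLN is a textbook target of the serum response factor (SRF) and its actin-sensing partners, the MRTFs.

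Values are log2 signals after background correction and quantile normalization, and a difference of 1 on this scale is a doubling. Mean raw signal per array ran from 303 to 518, with no set apart from the others, and 39.1% to 42.8% of probes were detected per array. None of the 3 ARF1 probes passed the test between the arrays labelled ARF1 siRNA and scramble. The brightest, ILMN_1802203, stood at 11.64 ± 0.06 (SD, n = 3) on scramble arrays and 11.78 ± 0.07 (SD, n = 9) on the others, a difference of 0.14 ± 0.08 (SE), with an adjusted p of 0.321 in limma. The second differed by 0.16 ± 0.11 (SE) and the remaining one, detected on 8 arrays, by -0.18 ± 0.14 (SE), with limma adjusted p-values of 0.399 and 0.453. The sets are therefore called by their labels. All 6 genes taken as markers of MDA-MB-231 were detected on 12 arrays, and ESR1, PGR and CDH1 on 0.

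The upstream sequence is shown for the genes with at least 1 probe past limma's F-test among the siRNA sets, so that they can be read side by side. Each run is the 250 bases before a RefSeq transcription start (GRCh38.p14), 5′ to 3′ on the gene's strand, in lower case with motif matches in capitals. The motifs searched on both strands were GGGCGG, the core bound by Sp1-type factors, TGACTCA, the AP-1 site, and the CArG box bound by SRF. PDLIM7 has 1 listed start, on the minus strand of chromosome 5, at chr5:177497605-177497854; PDLIM1 lies on the minus strand at chr10:95291004-95291253 and PDLIM5 on the plus strand at chr4:94451692-94451941. TES has 2 listed starts on the plus strand, at chr7:116210289-116210538 and chr7:116222703-116222952.
PDLIM7: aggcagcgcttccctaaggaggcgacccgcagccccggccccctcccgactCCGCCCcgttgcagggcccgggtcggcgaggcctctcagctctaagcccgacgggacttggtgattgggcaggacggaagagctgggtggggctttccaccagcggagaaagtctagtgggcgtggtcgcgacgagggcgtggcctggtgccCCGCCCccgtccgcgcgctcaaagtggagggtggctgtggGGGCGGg
PDLIM1: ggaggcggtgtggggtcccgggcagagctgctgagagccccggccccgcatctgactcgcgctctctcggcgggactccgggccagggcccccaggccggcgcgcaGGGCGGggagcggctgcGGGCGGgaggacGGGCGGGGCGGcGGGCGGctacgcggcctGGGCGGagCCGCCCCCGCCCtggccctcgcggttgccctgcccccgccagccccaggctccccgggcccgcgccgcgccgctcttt
PDLIM5: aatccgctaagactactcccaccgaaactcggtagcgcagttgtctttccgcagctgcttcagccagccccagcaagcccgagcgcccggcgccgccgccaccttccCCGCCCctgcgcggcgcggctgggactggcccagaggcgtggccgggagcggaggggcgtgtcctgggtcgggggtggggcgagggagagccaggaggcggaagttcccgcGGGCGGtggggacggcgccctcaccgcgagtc
TES first start: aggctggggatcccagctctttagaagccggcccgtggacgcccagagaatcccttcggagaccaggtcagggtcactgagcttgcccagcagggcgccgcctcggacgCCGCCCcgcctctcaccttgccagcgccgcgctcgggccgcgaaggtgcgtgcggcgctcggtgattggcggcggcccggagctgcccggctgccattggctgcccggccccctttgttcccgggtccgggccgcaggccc
TES second start: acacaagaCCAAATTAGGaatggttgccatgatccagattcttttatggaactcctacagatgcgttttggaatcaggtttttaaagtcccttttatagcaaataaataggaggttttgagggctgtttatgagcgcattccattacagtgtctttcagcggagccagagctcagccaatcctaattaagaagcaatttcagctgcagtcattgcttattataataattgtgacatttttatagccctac

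PDLIM7 holds 3 GGGCGG matches in its window, PDLIM1 8, PDLIM5 2 and the first TES start 1. This short motif occurred in 42.6% of 35116 RefSeq windows of the same length. The second TES start holds none and was the only one of the 5 printed windows with a CArG box, whose first base lies at -242 from the start; 1.16% of all windows hold one. No TGACTCA, present in 4.2% of windows, was found in the 5 windows. GGGCGG also occurred upstream of genes that did not pass the F-test among the sets. ZYX held 5 matches, PDLIM4 5, LASP1 3, and the listed TAGLN2 starts 0, 3 and 2. The TAGLN2 window with 3 also held 1 TGACTCA, at -49. None of these windows held a CArG box. A match is a description of the letters and not a binding site. Windows of 8 of the 10 genes were searched. PDLIM2 was left out and no upstream sequence was at hand for TAGLN, so neither was searched.

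PDLIM7, an Enigma protein that ties kinases and actinin to the cytoskeleton, lies at 177483394 to 177497604 on chromosome 5 (GRCh38.p14), and its 3 probes disagreed. Probe ILMN_1690125, annotated to transcript NM_213636, read 6.64, 6.65 and 6.87 on the scramble arrays. The ARF-1 arrays read 8.59, 8.61 and 8.53, the ARF-2 arrays 8.65, 8.44 and 8.71, and the ARF-4 arrays 8.18, 8.13 and 8.17. Every array labelled ARF1 siRNA was above every scramble array, and every ARF-4 array was below the arrays of the other 2 sets. The mean of the 9 arrays was 1.73 ± 0.14 (SE) above scramble, a 3.31-fold difference, and by set the differences were 1.86, 1.88 and 1.44, each ± 0.10 (SE), for ARF-1, ARF-2 and ARF-4. The size depended on the processing: over 23 alternative runs the difference of the 9 arrays from scramble ran from 1.19 to 1.80.

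Probe ILMN_1814985, annotated to transcript NM_005451, showed far smaller differences on the same arrays. It was also dimmer, averaging 5.47 on scramble arrays beside 6.72 for ILMN_1690125. The detection limits of those arrays were 4.87, 4.97 and 4.91. The part of its low signal in the smaller differences was not tested. Its values were 5.66, 5.37 and 5.38 on scramble arrays and 5.73, 5.46 and 5.93 in ARF-1. They were 5.74, 5.49 and 5.91 in ARF-2 and 5.76, 6.28 and 5.68 in ARF-4. The groups overlapped, with 1 ARF-4 array above all others, and the 9 arrays averaged 0.30 ± 0.15 (SE) above scramble. Probe ILMN_2396639, annotated to the same transcript, was detected on only 4 arrays and on 0 of the scramble arrays, so it passed the detection filter only through arrays labelled ARF1 siRNA. Its values lay between 4.55 and 5.13 on all 12 arrays, near the detection limit, and the difference from scramble was 0.05 ± 0.13 (SE), with no fold that could be bounded.

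The gap between ILMN_1690125 and the mean of the other 2 PDLIM7 probes was taken within each array. Probes differ in brightness, so only its change between groups is read. Scramble arrays had gaps of 1.39, 1.51 and 1.87. ARF-1 arrays had 3.37, 3.36 and 3.19, ARF-2 arrays 3.51, 3.13 and 3.22, and ARF-4 arrays 2.84, 2.64 and 3.00. The gap was thus wider on all 9 arrays than on any scramble array, a pattern that the choice of probe already contained, and all 3 ARF-4 arrays were below the arrays of ARF-1 and ARF-2. Set means were 3.31 ± 0.10, 3.29 ± 0.20 and 2.83 ± 0.18 (SD, n = 3 each), beside 1.59 ± 0.25 on scramble arrays. The gap includes the differences of ILMN_1690125 itself among the sets, and 1 of the 2 reference probes was undetected on 8 arrays. An exact permutation test of the gap among the 3 sets, over 1680 assignments of the 9 arrays, gave p = 0.0357 with F = 7.98, where the smallest p it allows is 0.00357.

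This p missed the threshold of 0.05 without 4 of the 9 arrays taken singly. In the same exact permutation test it was 0.0536 without ARF-1 replicate 1, ARF-1 replicate 2 or ARF-2 replicate 3, and 0.107 without ARF-4 replicate 2, the array where ILMN_1814985 read highest. Against ILMN_1814985 alone, dim but detected on 12 arrays, it was 0.0321, and against ILMN_2396639 alone, near the detection limit, 0.289. The plot of the 3 PDLIM7 probes shows the separation.

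**Figure D1:**
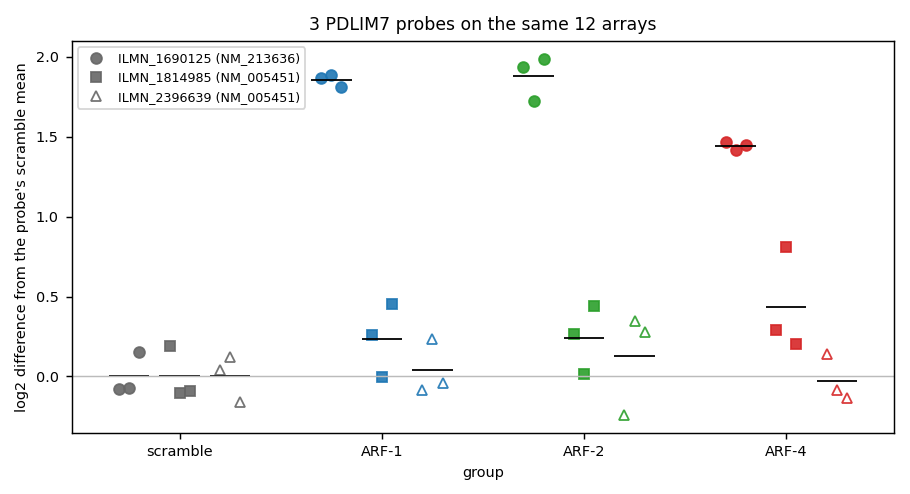
The 3 PDLIM7 probes on the 12 arrays, as log2 difference from each probe's own scramble mean (vertical axis) by group (horizontal axis); each point is 1 array and each short line the mean of 3 arrays. ILMN_1690125 (circles) lies 1.44 to 1.88 above its scramble mean in the 3 sets, while the 2 probes annotated to NM_005451 average between -0.03 and 0.43.

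PDLIM1, an ALP-type adaptor that binds alpha-actinin on stress fibres, had the smallest F-test p among the siRNA sets of the 17 probes. Probe ILMN_1788955 read 8.83, 8.63 and 8.61 on scramble arrays and 8.62, 8.68 and 8.55 in ARF-4. It read 9.40, 9.47 and 9.23 for the ARF-1 arrays and 9.17, 9.21 and 9.16 for those of ARF-2. The ARF-4 arrays overlapped the scramble arrays, and all 6 arrays of ARF-1 and ARF-2 were above both. ARF-4 differed from the mean of ARF-1 and ARF-2 by -0.66 ± 0.08 (SE; 95% interval -0.84 to -0.47), a 1.58-fold difference with a limma adjusted p of 0.00016. The F-test among the 3 sets gave an adjusted p of 5e-04. Against scramble the sets differed by 0.68, 0.49 and -0.07, each ± 0.10 (SE), for ARF-1, ARF-2 and ARF-4, values given without a test.

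PDLIM5, the Enigma homologue that anchors protein kinase C to the Z-line and stress fibres, showed the same order in all 3 of its probes. ILMN_2412281 read 7.26, 7.06 and 7.23 on scramble arrays and 7.15, 7.27 and 7.33 in ARF-4. Its values were 7.82, 7.73 and 7.88 for the ARF-1 arrays and 7.70, 7.88 and 7.51 for those of ARF-2. All 6 arrays of ARF-1 and ARF-2 lay above the other 6, and ARF-4 and scramble arrays overlapped. ARF-4 differed from ARF-1 and ARF-2 by -0.50 ± 0.10 (SE; limma adjusted p = 0.00213).

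ILMN_1692864 gave the same contrast as -0.54 ± 0.11 (SE; limma adjusted p = 0.0038) and ILMN_2361478 as -0.34 ± 0.10 (SE; limma adjusted p = 0.0308). In ILMN_2361478 the ARF-2 arrays, at 7.15 to 7.22, sat between ARF-1 (7.31 to 7.64) and ARF-4 (6.94 to 7.11). The call on ILMN_2361478 rested on 6 arrays, each of which ended it when left out: the limma adjusted p was 0.0559 and 0.0596 without ARF-1 replicates 1 and 3, 0.0531 and 0.0523 without ARF-2 replicates 2 and 3, and 0.0998 and 0.105 without ARF-4 replicates 2 and 3. The F-test adjusted p for ILMN_1692864, 0.0118, was 0.0612 without ARF-4 replicate 2. The 3 probes are annotated to different PDLIM5 transcripts.

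The remaining PDLIM genes were dim. PDLIM4, also called RIL and an actinin partner, had 1 probe, ILMN_1663976, detected on 9 arrays, with values from 4.66 to 5.22 on all 12 arrays and groups that overlapped. Its contrast of ARF-4 with the other sets was 0.17 ± 0.11 (SE; 95% interval -0.07 to 0.42; limma adjusted p = 0.307), and passed at 0.0485 only without ARF-2 replicate 3. Both PDLIM2 probes, ILMN_1770248 and ILMN_1669667, were detected on 0 arrays and entered no test.

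For PDLIM7 ILMN_1690125 the contrast of ARF-4 with ARF-1 and ARF-2 was -0.43 ± 0.09 (SE; limma adjusted p = 0.00324) and the F-test adjusted p was 0.0108. ILMN_1814985 gave 0.20 ± 0.15 (SE; 95% interval -0.14 to 0.53; limma adjusted p = 0.406), and ILMN_2396639 gave -0.11 ± 0.14 (SE; limma adjusted p = 0.623). Of the 3, the first probe alone had an interval that left out 0.

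TES, a LIM protein of focal adhesions that binds zyxin, followed the order of PDLIM1 and PDLIM5 in its bright probe. ILMN_1746243 read 6.81, 6.68 and 6.85 on scramble arrays. The ARF-1 arrays read 7.56, 7.39 and 7.17, the ARF-2 arrays 6.91, 7.03 and 7.33, and the ARF-4 arrays 6.99, 6.88 and 6.78. The 3 ARF-1 arrays were above all scramble and ARF-4 arrays. The ARF-2 arrays were above all scramble arrays and overlapped those of ARF-1 and ARF-4. ARF-4 differed from ARF-1 and ARF-2 by -0.35 ± 0.11 (SE; limma adjusted p = 0.0392). Each of 8 arrays ended this call when left out, with limma adjusted p-values of 0.0524 without scramble replicate 1, 0.0764 and 0.065 without ARF-1 replicates 1 and 2, 0.0503 and 0.0657 without ARF-2 replicates 2 and 3, and 0.0531, 0.101 and 0.141 without ARF-4 replicates 1, 2 and 3. A fit of the 9 arrays alone also ended it (0.0623), as did testing all probes without the detection filter (0.0587). A dimmer TES probe, ILMN_2311796, annotated to another transcript, gave -0.22 ± 0.15 (SE; limma adjusted p = 0.335), and the remaining TES probe, ILMN_2311798, was detected on 0 arrays.

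ZYX, which recruits Ena/VASP proteins to strained actin fibres, stood above scramble by a similar amount in each set. ILMN_1701875 read 9.65, 9.45 and 9.62 on scramble arrays. The ARF-1 arrays read 10.27, 10.22 and 10.10, the ARF-2 arrays 10.21, 9.97 and 9.95, and the ARF-4 arrays 10.12, 10.05 and 10.01. All 9 were above the 3 scramble arrays, by 0.52 ± 0.10 (SE) on average, and the second probe, ILMN_2371169, averaged 0.31 ± 0.10 (SE) above scramble, its lowest array at 7.84 touching the highest scramble array at 7.84. Among the sets, ARF-4 differed from ARF-1 and ARF-2 by -0.06 ± 0.09 (SE; 95% interval -0.25 to 0.13; limma adjusted p = 0.669) in the first probe and by 0.12 ± 0.10 (SE; limma adjusted p = 0.429) in the second.

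LASP1, a LIM and SH3 protein of membrane ruffles, varied more among the scramble arrays than within any siRNA set. Its probe, ILMN_1665909, ranged from 12.57 to 12.98 over all 12 arrays, both ends being scramble arrays. The 9 arrays differed from scramble by 0.01 ± 0.10 (SE), and ARF-4 from the other sets by 0.09 ± 0.10 (SE; 95% interval -0.13 to 0.30; limma adjusted p = 0.584).

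TAGLN read higher on the 9 arrays and TAGLN2 lower. The bright TAGLN probe, ILMN_1778668, gave 6.62, 5.99 and 6.50 on scramble arrays. The ARF-1 arrays read 7.53, 7.45 and 7.33, the ARF-2 arrays 7.53, 7.65 and 7.47, and the ARF-4 arrays 7.50, 7.30 and 7.52. The scramble arrays were all below the others, and their spread (SD 0.33) was wider than that of any set (0.09 to 0.12). The difference was 1.10 ± 0.12 (SE), or 2.15-fold, and by set 1.07, 1.18 and 1.07, each ± 0.15 (SE). Without background correction it was 0.64. ARF-4 differed from ARF-1 and ARF-2 by -0.06 ± 0.13 (SE; 95% interval -0.33 to 0.22; limma adjusted p = 0.8).

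A second TAGLN probe, ILMN_2400935, annotated to the same transcript, was detected on all 9 arrays labelled ARF1 siRNA and on 0 scramble arrays, and passed the filter only through the former. Against the detection limit of the scramble arrays its level was at least 1.20-fold higher over the 9 arrays, a bound computed from that limit since no scramble signal was measured above background. The remaining TAGLN probe, ILMN_1706783, for another transcript, was detected on 0 arrays. In such bulk RNA, a change in the share of cells of one kind and a change in RNA per cell cannot be told apart.

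TAGLN2, the broadly expressed transgelin, had 2 probes for the same transcript with the same sign. ILMN_2090105 read 11.58, 11.75 and 11.48 on scramble arrays. The ARF-1 arrays read 10.79, 10.86 and 11.09, the ARF-2 arrays 10.92, 11.27 and 10.81, and the ARF-4 arrays 10.79, 10.54 and 10.66. No array labelled ARF1 siRNA reached the lowest scramble array, and the mean difference was -0.75 ± 0.13 (SE). ILMN_1691892 gave -0.87 ± 0.18 (SE), again without overlap. ARF-4 was the lowest set in both, by -0.30 ± 0.12 (SE; limma adjusted p = 0.0883) and -0.43 ± 0.15 (SE; limma adjusted p = 0.0503) against ARF-1 and ARF-2. Neither passed the threshold of 0.05. ILMN_1691892 passed when 1 of 4 arrays was left out, at 0.0374 and 0.0394 without scramble replicates 2 and 3, 0.0191 without ARF-1 replicate 2 and 0.0491 without ARF-2 replicate 1. Without background correction both probes passed, at 0.0126 and 0.00777.

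**Figure D2:**
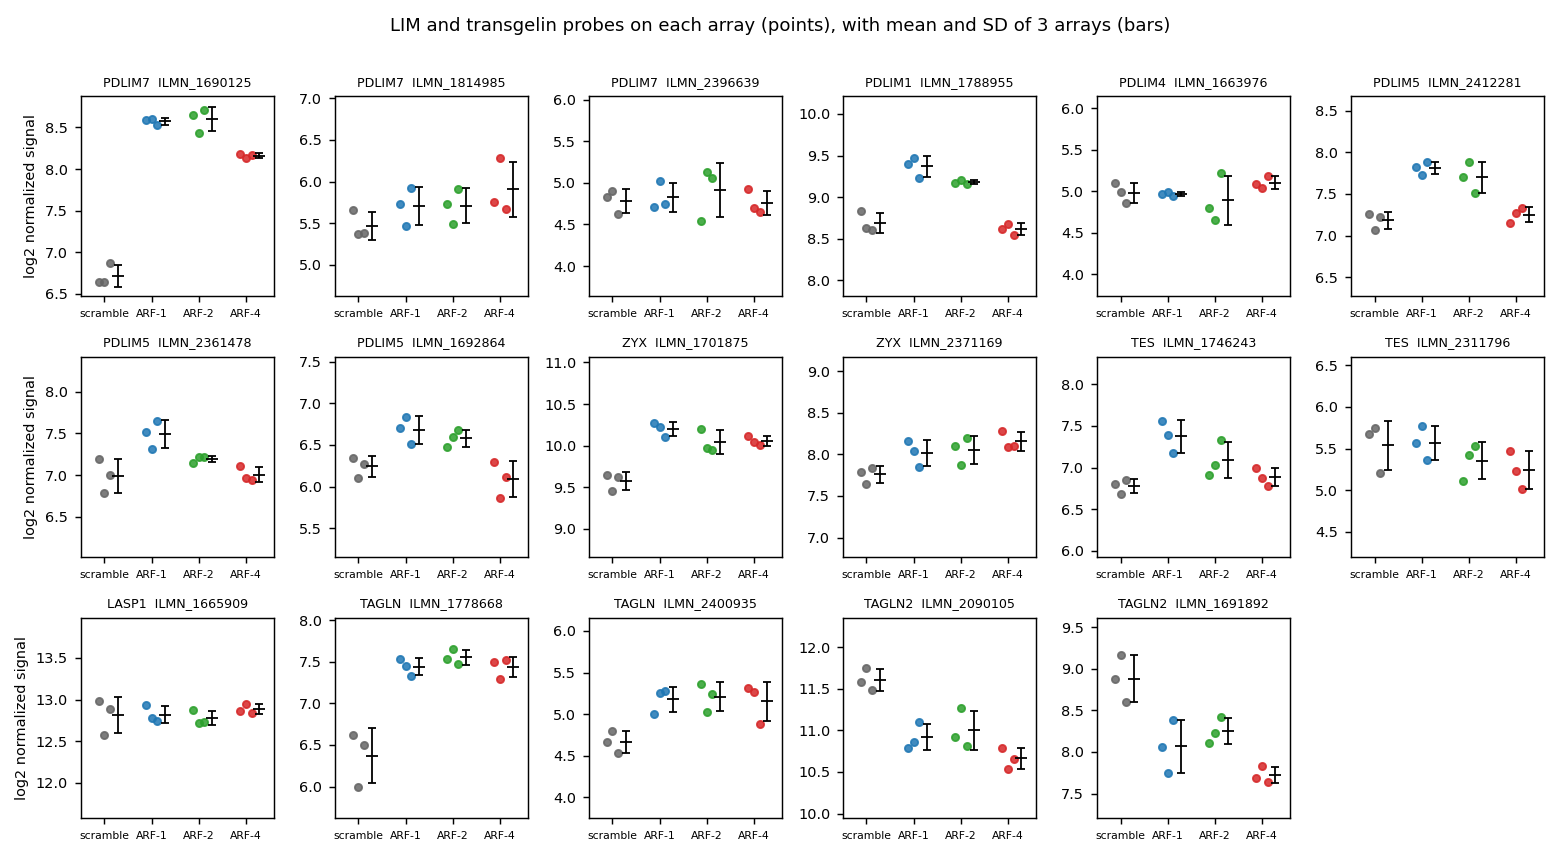
The 17 probes that passed the detection filter, with log2 normalized signal (vertical axis; every panel spans the same range in log2 units) by group (horizontal axis); points are single arrays and bars the mean and SD of 3 arrays. PDLIM7 ILMN_1690125 and the 2 TAGLN probes lie above scramble on all 9 arrays, TAGLN2 is lower, and PDLIM1 and PDLIM5 in ARF-4 lie beside scramble.

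Counted together, 4 of the 17 probes were higher and 2 lower than scramble at a limma adjusted p below 0.05, 6 in all, where 10.9% of all kept probes were called, 5.62% higher and 5.30% lower. The 2 conditions had no overlap on 7 of the 17 probes, 5 higher and 2 lower, beside 12.3% of all probes. Both counts of higher probes include TAGLN ILMN_2400935, undetected on scramble arrays and kept only through the arrays labelled ARF1 siRNA. The genes were chosen with this contrast known, so nothing is read from these counts. The median difference from scramble was 0.30 over the 17 probes and 0.00 over all kept probes.

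The comparison among the sets is not the one with scramble that had been seen when the genes were chosen. In it, 6 of 17 probes passed the F-test, against 19.8% of all kept probes. The same 6 probes, from PDLIM1, PDLIM5, PDLIM7 and TES, were lower in ARF-4 than in ARF-1 and ARF-2, and 0 were higher. In that contrast 24.2% of all probes were called, 11.8% of all probes being lower and 12.3% higher. At an unadjusted p under 0.05, 8 were lower, the 2 TAGLN2 probes being added, and 0 higher, beside 17.3% and 18.1% of all probes. The median of this contrast was -0.22 over the 17 probes and 0.01 over all kept probes. By gene, 4 of the 9 kept genes had a probe called lower in ARF-4, beside 14.7% of all genes, read from 1 probe each. Between ARF-2 and ARF-1, 0 of 17 probes passed in limma, where 0.0631% of all probes did. At an unadjusted p under 0.05, ILMN_2361478 of PDLIM5 (0.0266) and ILMN_1746243 of TES (0.0469) were lower in ARF-2, beside 4.48% of all probes.

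Scaling mattered to these counts. With arrays scaled to a common median in place of quantile normalization, 1 of 17 probes passed the F-test, PDLIM1, at an adjusted p of 0.0199. In the contrast of ARF-4 with the other sets 2 probes passed, both lower (PDLIM1 and PDLIM5 ILMN_1692864). Over all probes the F-test count moved from 4401 to 1813 under that scaling, and of the probes called against scramble 30.4% were higher, in place of 51.5%. For ARF-4 against the other sets, PDLIM7 ILMN_1690125 then gave -0.37 (limma adjusted p = 0.178) in place of -0.43, and PDLIM5 ILMN_2412281 gave -0.47 (0.0631) in place of -0.50.

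**Figure D3:**
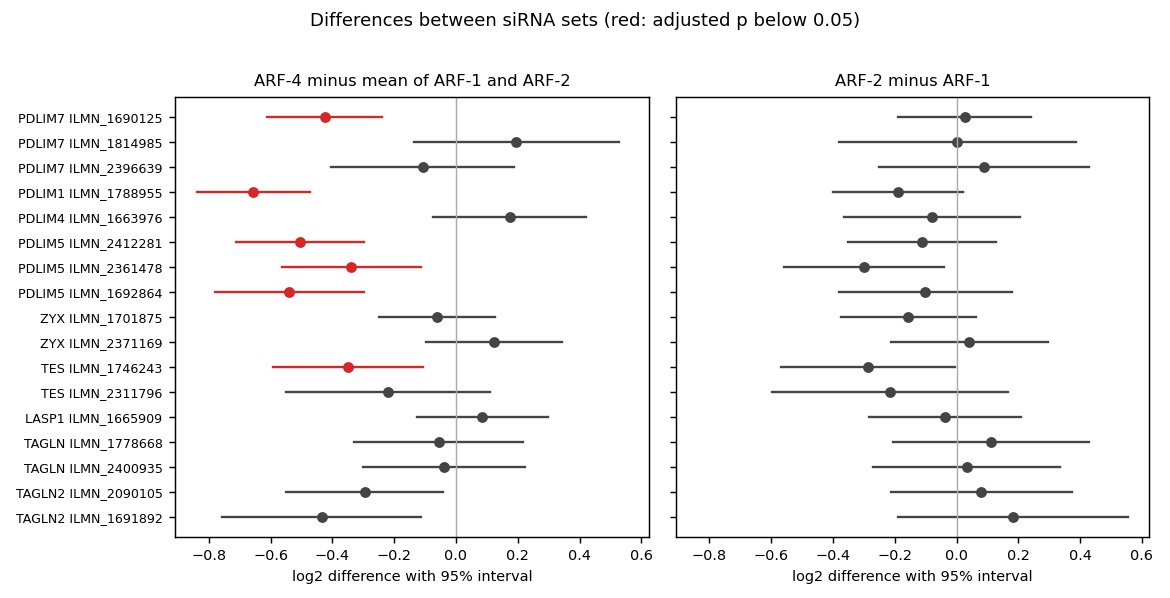
Differences between siRNA sets for the 17 probes (rows): ARF-4 minus the mean of ARF-1 and ARF-2 (left) and ARF-2 minus ARF-1 (right), as log2 difference with its 95% interval (horizontal axis), in red where the limma adjusted p is below 0.05. The 6 red points, all below 0, are PDLIM7 ILMN_1690125, PDLIM1, the 3 PDLIM5 probes and TES ILMN_1746243.

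The kept probes most alike to PDLIM7 ILMN_1690125 over the 12 arrays, by root mean square difference of centred log2 values among 16192 probes with 1 gene symbol, belonged to MDK (0.132), ALOX5AP (0.149), MED27 (0.166), NNMT (0.182) and MIR3142HG (0.197). The PDLIM7 probe itself spanned 2.07 log2 units. Most alike to TAGLN ILMN_1778668, which spanned 1.66, were SAA2 (0.165), EVL (0.167), MAGED1 (0.175), BCAS4 (0.176) and BEX3 (0.186). No other gene of the 10 was among them.

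The rest of the actin system was read from 71 further genes in 6 lists, of which 67 had a probe and 60 were kept, with 1 probe per gene. In the comparison of the 9 arrays with scramble, 8 of the 60 rose and 4 fell at a limma adjusted p below 0.05, or 20% called, where 12.5% of all 12048 kept genes were called, 6.50% higher and 5.99% lower. Under median scaling the split was 4 higher and 5 lower. Their median difference was -0.00 beside 0.00 over all kept probes. The largest rises were in EVL, an Ena/VASP protein that extends actin filaments (1.17 ± 0.12, SE; adjusted p = 4.3e-05), MYH10, nonmuscle myosin IIB (1.17 ± 0.12; adjusted p = 6.58e-05), and PDLIM3, an ALP-family relative of PDLIM1 (1.07 ± 0.17; adjusted p = 0.00139). These 3 calls were not lost in any alternative run, PDLIM3 giving 0.71 (adjusted p = 0.0226) as the mean of its 2 probes.

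In the ALP and Enigma family, PDLIM3 rose and LDB3, detected on 4 arrays and near the detection limit, gave -0.03 ± 0.13 (SE). A second PDLIM3 probe gave 0.36 with an adjusted p of 0.354 in limma. PDLIM3 in ARF-4 differed from ARF-1 and ARF-2 by -0.57 ± 0.09 (SE; limma adjusted p = 0.000458), the direction of PDLIM1, PDLIM5 and PDLIM7 ILMN_1690125. Of the zyxin and paxillin families, 0 of 9 kept genes passed against scramble in limma with 1 probe per gene, and 3 had an unadjusted p under 0.05, beside 30.1% of all kept genes. Those 3 were LIMS1 (0.28 ± 0.10, SE; limma adjusted p = 0.0929) and LIMS2 (0.43 ± 0.18; adjusted p = 0.14), adaptors of integrin-linked kinase also called PINCH proteins, and PXN, the adhesion scaffold paxillin (-0.27 ± 0.12; adjusted p = 0.171). LIMS2 was detected on 8 arrays and averaged 4.89 on scramble arrays, near the detection limit. LPP, a zyxin relative, gave 0.11 ± 0.13 (SE) and TRIP6 gave 0.02 ± 0.08 (SE). Dimmer probes of 2 genes in these families did pass. LIMS1 ILMN_1675387 rose by 0.49 (limma adjusted p = 0.0176), and so did LIMS1 as the mean of its 2 probes (0.39; adjusted p = 0.00783). The AJUBA probes opposed each other, at 0.90 for ILMN_1811535 (limma adjusted p = 0.0139) and -0.75 for ILMN_1661372 (0.0249). Of 15 other LIM genes, CSRP1, a cysteine-rich protein of stress fibres, rose by 0.48 ± 0.12 (SE; adjusted p = 0.0198), and LIMA1, which cross-links actin, fell by 0.45 ± 0.12 (SE; adjusted p = 0.0249).

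In the transgelin and calponin family, CNN2 rose by 0.37 ± 0.09 (SE; limma adjusted p = 0.0166), while CNN3 gave 0.22 ± 0.09 and TAGLN3 0.35 ± 0.20 (SE), neither past the threshold. TAGLN3 was detected on 5 arrays and averaged 4.69 on scramble arrays, near the detection limit. Of 13 filament and adhesion partners, PALLD (palladin) rose by 0.47 ± 0.12 (SE; limma adjusted p = 0.0182) and BCAR1, the adhesion scaffold p130Cas, fell by 0.54 ± 0.14 (SE; limma adjusted p = 0.0262). Of 18 SRF, MRTF and contractile genes, 3 rose and 2 fell. They were MYH10, CCN2 (0.63 ± 0.13, SE; adjusted p = 0.00735) and TPM2 (0.68 ± 0.18; adjusted p = 0.0286) upward, and MYH9, nonmuscle myosin IIA (-0.39 ± 0.08; adjusted p = 0.00903), and TPM1 (-0.56 ± 0.16; adjusted p = 0.0377) downward. THBS1, the matrix protein thrombospondin 1, gave -0.59 ± 0.19 (SE; limma adjusted p = 0.0588).

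The 4 TPM1 probes disagreed. Besides the one above, 1 fell by 0.64 (limma adjusted p = 0.00732), 1 rose by 0.67 (0.047) and 1 gave 0.40 (0.263), and the mean of the 4 probes gave -0.04 (0.861). Leaving out any scramble array ended the calls of CSRP1, LIMA1, PALLD, TPM1 and TPM2. The count of 12 called genes became 5, 6 and 4 without scramble replicates 1, 2 and 3. TPM1 was also lost without any of 5 arrays labelled ARF1 siRNA (limma adjusted p from 0.0532 to 0.0583). Without scramble replicate 1 the adjusted p was 0.0579 for CCN2 and 0.115 for BCAR1. Without scramble replicate 2 it was 0.0884 for CNN2, and without scramble replicate 3 it was 0.0819 for CNN2, 0.132 for BCAR1 and 0.0539 for MYH9. Median scaling ended the calls of CSRP1 (0.256), CNN2 (0.48), PALLD (0.235), TPM2 (0.0693), CCN2 (0.0652) and MYH9 (0.0561).

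ACTA2, smooth-muscle actin and like TAGLN an SRF target, had the same order of sets as PDLIM1. Its probe averaged 5.54 on scramble arrays and stood above that by 1.36 in ARF-1, 1.15 in ARF-2 and 0.09 in ARF-4. ARF-4 differed from the other sets by -1.16 ± 0.11 (SE; limma adjusted p = 1.54e-05). Against scramble it gave 0.86 ± 0.31 (SE; limma adjusted p = 0.0828). In the F-test among the sets 17 of the 60 genes passed, or 28.3%, where 24.1% of all genes did. In the contrast of ARF-4 with the other sets 13 of the 60 were lower and 4 higher, beside 14.7% and 14.4% of all genes. The 4 higher in ARF-4 were AJUBA (0.78 ± 0.10, SE; limma adjusted p = 0.00017), THBS1 (0.67 ± 0.08; adjusted p = 7.76e-05), PRICKLE1 (0.42 ± 0.09; adjusted p = 0.00566) and TPM1 (0.39 ± 0.12; adjusted p = 0.0313). THBS1 thus ran opposite to ACTA2, at -0.95 from scramble in ARF-1, -0.69 in ARF-2 and -0.15 in ARF-4. Smooth-muscle markers were checked because TAGLN and ACTA2 are also theirs. Of the 9 markers, MYH11, DES, CNN1, LMOD1, SYNPO2 and ACTG2 were detected on 0 arrays. ACTA2 and SMTN were detected on 12 arrays and MYOCD on 3. SMTN was the brightest, averaging 8.10 on scramble arrays, 7.96 in ARF-1, 8.08 in ARF-2 and 8.08 in ARF-4. The sum over the list includes SMTN and the undetected genes. The summed linear signal of the list ran from 446.8 to 519.6 on scramble arrays, 505.8 to 544.5 in ARF-1, 503.1 to 562.6 in ARF-2 and 463.9 to 484.7 in ARF-4. Its part in the levels of TAGLN was not tested. Of 8 fibroblast markers, 4 were detected on 0 arrays and only PDGFRB on at least 3.

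**Figure D4:**
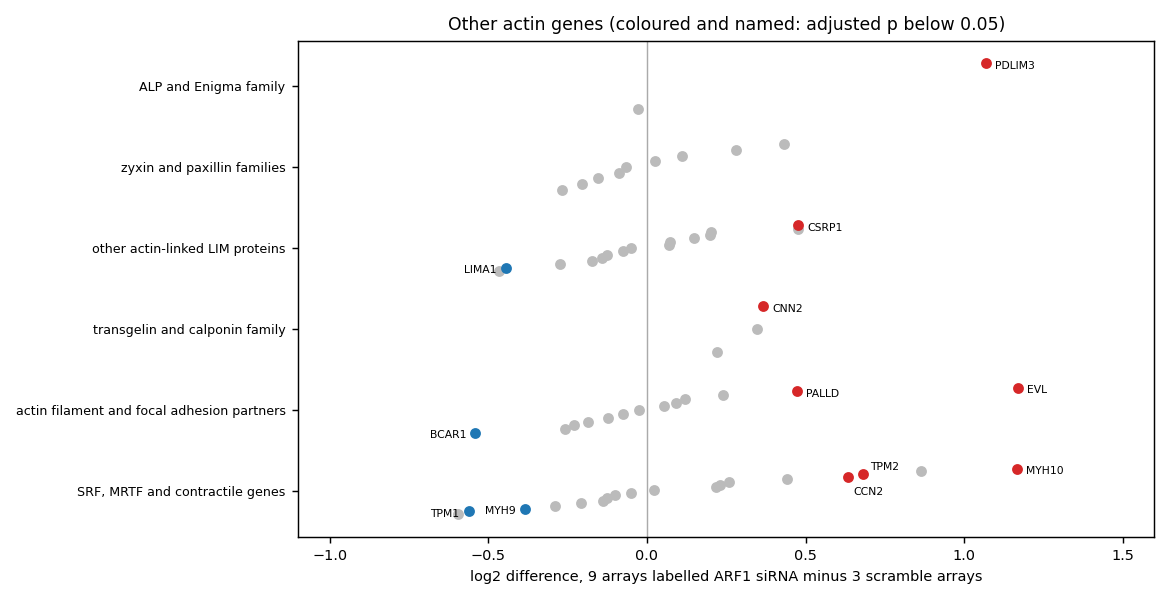
Log2 difference of the 9 arrays labelled ARF1 siRNA from the 3 scramble arrays (horizontal axis) for the 60 kept genes of 6 actin lists (rows); each point is 1 gene, named and coloured where the limma adjusted p is below 0.05, red for higher and blue for lower. The 8 red and 4 blue points are spread over 5 of the 6 lists, and with 1 probe per gene none lies in the zyxin and paxillin families.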

How the data were processed

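Per the file headers, the deposited files give each probe's bead signal on each array as a raw intensity on a linear scale, beside its detection p-value, and a deposited value table is likewise in intensity units; per the submitters' processing notes, BeadStudio 2.3.47 made the export. Of 47323 listed probes, 12 were empty. Signals were corrected and normalized with neqc in limma 3.58.1 (R 4.3.3), with an offset of 16, quantile normalization and log2. A probe was kept if its detection p was below 0.05 on at least 3 of 12 arrays. Groups came from the source names.

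The genes and lists were chosen with earlier results of these data known, so differences from scramble are a description. The text names every probe of the 10 genes, up to 6 further genes per actin list by smallest adjusted p, with further members as examples, and the 5 probes most alike to the PDLIM7 and TAGLN probes. A gene outside the 10 was read from its kept probe with the highest mean.

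Scramble was compared in a limma fit of 2 condition means. Contrasts among the sets, and the moderated F-test, used 4 group means with 1 spread. In the main fits contrasts are two-sided, and limma p-values are adjusted over 22195 probes (Benjamini-Hochberg). For means of a gene's probes they are adjusted over 12048 genes. Permutation p-values of the PDLIM7 gap are unadjusted. Same-numbered arrays did not deviate together, with correlations from -0.0223 to 0.0372 over 18 pairs, so replicate numbers were not taken as pairs. Where a group left a probe undetected, the fold is a bound against the mean detection limit of those arrays. Alternatives covered background correction, normalization, the authors' deposited value table, the probe filter, array weights, blocks (statmod 1.5.0), the arrays in the fit and leaving out each array. Probe names came from the platform annotation, and upstream sequences and positions from RefSeq, GRCh38.p14; the signals used no genome build. The number of arrays limits precision.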

Additional observations from a re-analysis of the deposited data

Results flagged for a closer look

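The siRNA sets differed in 6 of the 17 kept probes in limma's F-test among ARF-1, ARF-2 and ARF-4. The adjusted p was 5e-04 for PDLIM1 ILMN_1788955, 0.0108 for PDLIM7 ILMN_1690125 and 0.0438 for TES ILMN_1746243. The 3 PDLIM5 probes had adjusted p-values of 0.00658 (ILMN_2412281), 0.0118 (ILMN_1692864) and 0.0294 (ILMN_2361478). In all 6 the ARF-4 arrays had the lowest mean of the sets. No array stood apart from the other 8 labelled ARF1 siRNA on any of the 17 probes by Dixon's test.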

How the results depend on the processing

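Median scaling in place of quantile normalization cut the probes past the F-test from 6 to 1. Those that differed between ARF-4 and the other sets fell from 6 to 2, and the cause was not tested. Without background correction, or with the authors' deposited value table, each of these counts was 8. Against scramble, array weights or a fit of 4 group means gave 10 called probes in place of 6, median scaling 5 and a random block for source name 4. The PDLIM7 gap had an exact permutation p of 0.0357, which was 0.289 against ILMN_2396639 alone. With the replicate number as a block, set labels were exchanged only among arrays of the same number, which allows fewer assignments. The gap's exact permutation p was then 0.111, with F = 12.22 in place of 7.98. The block ended the TES calls in the contrast of ARF-4 with the other sets (limma adjusted p = 0.0614) and in the F-test (0.0737). It changed no other call on the 17 probes. Among the other actin genes it ended the calls of TPM1 (0.0544) and TPM2 (0.0522) against scramble. For the other actin genes, the 12 calls against scramble became 23 with array weights, 22 with 4 group means and 3 (EVL, MYH10 and PDLIM3) with a random block for source name, and 17 F-test calls became 6 under median scaling. Leaving out each array in turn gave ranges of 5 to 7 called probes against scramble, 3 to 6 in the F-test, 4 to 7 between ARF-4 and the other sets, 0 between ARF-2 and ARF-1, p of 0.0214 to 0.107 for the gap, and 4 to 17 and 9 to 15 other actin genes against scramble and in the F-test. Median scaling left 4 of the other actin genes higher than scramble and 5 lower, in place of 8 and 4. No called difference of the 17 probes, from scramble or between ARF-4 and the other sets, reversed its direction under any alternative run. Directions of the other actin genes were not compared across these runs.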
